A study of Mus musculus with 8 samples.

Results

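The genes described here are 10 signalling components that act below the endosomal Toll-like receptors: the adaptors Myd88 and Tirap, the kinases Irak1, Irak2, Irak4 and Ikbke, the ubiquitin ligases Traf6 and Traf3, the transcription factor Irf5, and Slc15a4, a transporter of the endolysosomal membrane. They were followed through every probe set, a group of array probes read as 1 signal, that the platform annotation assigned to exactly 1 of the 10 symbols. This gave 18 of the 45101 probe sets, belonging to 8 genes, and Irak4 and Traf3 were not analysed here. Of the 18, 15 passed a filter that kept the probe sets with mean signal above the median, and all 8 genes kept at least 1.

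RNA of spleen cells from 8-week-old male mice was hybridized to Affymetrix arrays, 1 array per sample, with 4 samples of B6.SB-Yaa/J and 4 of C57BL/6J, called Yaa 1 to 4 and wild type 1 to 4. B6.SB-Yaa/J mice are C57BL/6 mice that carry the Yaa mutation, a Y chromosome known to carry extra X-derived material that includes Tlr7, and the C57BL/6J males carry no such mutation. No treatment was given to either group per the labels. Spleens were teased through nylon screens and red cells were lysed in both groups, and Yaa 3 pooled the cells of 2 spleens while every other sample came from 1. Other sequence differences between the strains were not tested, so strain background and the Yaa chromosome cannot be told apart.

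In the endosome, TLR7 and TLR9 recognise RNA and DNA and recruit MyD88, onto which IRAK4, IRAK1 and IRAK2 assemble. TRAF6 then builds the ubiquitin chains that activate NF-kB and MAP kinases, TRAF3 links the complex to the interferon arm, and IRF5 is activated to transcribe inflammatory cytokines and type I interferon. SLC15A4 moves histidine and peptides out of the endolysosome and is needed for IRF5 activation by these receptors, and variants near IRF5 are known for their association with human lupus.

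Values are log2(signal + 16) of quantile-normalized arrays, so 4 is the floor, and a difference is Yaa minus wild type on this scale. In a bulk sample, fewer cells of a type and less RNA per cell cannot be told apart. The trimmed mean of the deposited signals ran from 106.9 to 193.1 per array, and the number of arrays limits the precision. Among the 8 arrays Yaa 2 and Yaa 3 were far from the rest. On principal component 1, with 56.8% of the variance, Yaa 2 scored 68.8, Yaa 3 scored -92.4 and the other 6 scored -18.4 to 20.0. In Yaa 3 the B cell markers were far below those of the other samples, with 7 of 7 tested markers lowest there and Ms4a1, the gene of CD20, at 4.08, against 11.65 or more in the other 7 samples. The titles name spleen, and markers of B cells, T cells, macrophages and erythroid cells passed the filter, which uses the mean over all 8 samples.

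The promoters of 5 members are shown because their signals parted in Yaa 3: Irf5, Slc15a4, Ikbke and Traf6 each had a probe set that was lowest in Yaa 3, and Myd88 was highest there, as was the other Irf5 probe set. Each sequence runs from 250 bases before to 50 after the gene's start in RefSeq, build GRCm38.p6, where all 10 genes matched, with 12 promoters in all. On the plus strand lie Irf5 at chr6:29526375-29526674 and Traf6 at chr2:101678170-101678469, and on the minus strand lie Slc15a4 at chr5:127617343-127617642, Ikbke at chr1:131279514-131279813 and Myd88 at chr9:119339969-119340268. Capitals mark the core of the interferon-stimulated response element (GAAA, any 2 bases, then GAAA) and the core bound by ETS factors (GGAAGT), each searched on both strands.
Myd88: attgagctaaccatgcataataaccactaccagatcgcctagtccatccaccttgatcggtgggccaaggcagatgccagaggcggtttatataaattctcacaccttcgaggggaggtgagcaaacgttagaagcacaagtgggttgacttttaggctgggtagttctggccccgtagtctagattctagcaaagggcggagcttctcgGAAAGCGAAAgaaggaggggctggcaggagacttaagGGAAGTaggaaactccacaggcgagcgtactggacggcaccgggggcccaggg
Ikbke: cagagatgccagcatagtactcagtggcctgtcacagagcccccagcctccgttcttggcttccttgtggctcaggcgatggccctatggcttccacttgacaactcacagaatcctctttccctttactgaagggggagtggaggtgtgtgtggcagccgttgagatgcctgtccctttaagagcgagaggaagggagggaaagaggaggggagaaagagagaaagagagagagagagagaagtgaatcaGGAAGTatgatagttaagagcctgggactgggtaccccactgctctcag
Irf5: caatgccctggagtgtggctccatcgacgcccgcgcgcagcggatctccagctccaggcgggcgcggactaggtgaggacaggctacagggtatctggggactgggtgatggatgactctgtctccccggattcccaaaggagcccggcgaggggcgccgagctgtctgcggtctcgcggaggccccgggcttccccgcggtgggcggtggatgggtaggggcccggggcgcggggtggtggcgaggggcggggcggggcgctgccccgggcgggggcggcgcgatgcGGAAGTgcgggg
Slc15a4: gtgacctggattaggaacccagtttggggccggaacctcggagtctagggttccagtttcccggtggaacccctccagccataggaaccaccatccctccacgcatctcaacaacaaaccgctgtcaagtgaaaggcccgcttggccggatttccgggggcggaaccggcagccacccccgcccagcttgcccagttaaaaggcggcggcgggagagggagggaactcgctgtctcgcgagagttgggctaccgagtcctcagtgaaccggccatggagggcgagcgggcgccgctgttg
Traf6: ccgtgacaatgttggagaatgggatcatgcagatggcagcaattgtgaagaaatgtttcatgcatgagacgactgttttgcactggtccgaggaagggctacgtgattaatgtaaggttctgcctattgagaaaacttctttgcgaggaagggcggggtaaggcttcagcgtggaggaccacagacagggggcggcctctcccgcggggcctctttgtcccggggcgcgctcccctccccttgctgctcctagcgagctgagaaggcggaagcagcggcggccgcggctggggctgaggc

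The Myd88 promoter held the response element core, starting 40 bases before the gene's start. It was the 1 of 12 member promoters to hold it, where 3.44% of 32851 promoters of the same length did. An ETS core was found in 8 of 12 member promoters, from 7 of 10 genes with Myd88, Ikbke and Irf5 among them. It was in 23.8% of all promoters, while the windows of Slc15a4 and Traf6 held neither core. The GC box GGGCGG, which Sp1 binds, was found in 11 of 12 member promoters, from 9 of 10 genes with Ikbke the exception, and in 35.7% of all promoters. Irak1 and Tirap each gave more than 1 window, and the windows of each overlap, so the 12 are not separate sequences. G and C made up 54% to 84% of the 12 windows, and this motif holds only G and C. A kappaB-like motif, GGGA, any 2 bases, then TTCC, was in 0 of 12 member promoters and in 1.47% of all promoters. The CCAAT box was in 1 of 12 (Irak4) and in 37.4% of all promoters. A PU.1-like motif, GAGGAAGT, was in 1 of 12 (Traf3) and in 3.2%. The Irf5 window was 74.7% G and C, that of Slc15a4 64%, that of Traf6 59.3%, and those of Myd88 and Ikbke 54% each, against a median of 52.7% over all promoters. These matches describe letters in a window and say nothing of whether a factor binds.

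None of the 15 tested probe sets passed limma's test, where 0 had an adjusted p under 0.05 over all 22518 probe sets and 0.00444% of all probe sets did. At an unadjusted p under 0.05 limma listed 1 of the 15, an Irak1 probe set, beside 4.73% of all tested probe sets, made up of 2.97% higher and 1.76% lower. The same probe set was also the 1 of 15 whose groups did not overlap, with Yaa above, beside 4.10% of all tested probe sets, 2.43% with Yaa above and 1.67% with Yaa below. Of the 15, 8 were higher and 7 lower in Yaa, with a median difference of 0.02, and over all tested probe sets the median was -0.01. The 95% intervals of the 15 differences ran from -1.37 at their lowest, for Ikbke, to 0.86 at their highest, for Irak1 1438857_x_at, and 14 of the 15 held 0.

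**Figure D1:**
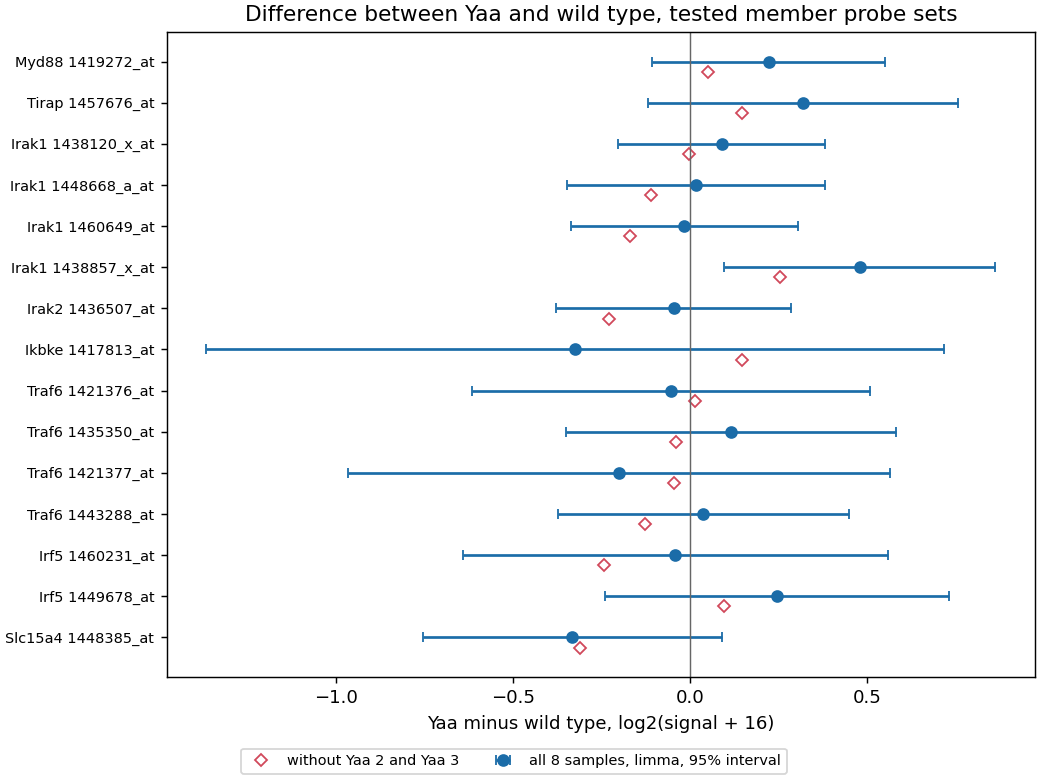
Difference between Yaa and wild type in log2(signal + 16) for the 15 tested member probe sets. Filled points and bars give limma's difference and its 95% interval over all 8 samples, and open diamonds give the difference without Yaa 2 and Yaa 3. Of the 15 intervals, 1 leaves out 0, that of the Irak1 probe set 1438857_x_at, and the interval of Ikbke is the widest.

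Myd88, the adaptor shared by nearly all Toll-like receptors and the interleukin-1 receptor, had its highest signal in Yaa 3. Its probe set 1419272_at stood at 8.45, 8.68, 9.0 and 8.54 in Yaa 1 to 4, against 8.42, 8.47, 8.37 and 8.52 in wild type 1 to 4. Yaa 2 to 4 lay above every wild-type sample and Yaa 1 lay within their range. The difference was 0.22 ± 0.15 (SE; limma adjusted p = 0.997), and its interval ran from -0.11 to 0.55. It was 0.11 without Yaa 3, 0.05 without Yaa 2 and Yaa 3, and -0.01 with the values as deposited, a scaling that moved the median of all tested probe sets to -0.20 and left Myd88 at 0.19 above that median. Markers of monocytes and macrophages, in which Myd88 is known to be expressed, were also highest in Yaa 3, at 9.73 over the 7 tested of 8, and stood at 8.51 to 8.94 in the other Yaa samples and at 8.26 to 8.34 in wild type. The part of these cells in the Myd88 signal was not tested.

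Tirap, which brings MyD88 to TLR2 and TLR4 at the membrane and has been reported to act in endosomal signalling too, had 2 probe sets. The tested one, 1457676_at, stood at 5.97, 6.26, 6.00 and 5.59 in Yaa 1 to 4, against 5.34, 5.81, 5.52 and 5.86 in wild type 1 to 4. Yaa 1 to 3 lay above all wild-type samples and Yaa 4 lay among them. The difference of 0.32 ± 0.19 (SE) did not pass (limma adjusted p = 0.997), and it was 0.21 without Yaa 2, 0.15 without Yaa 2 and Yaa 3, and 0.44 without Yaa 4 (limma adjusted p = 0.971). The other probe set, 1418685_at, was dim, at 4.29 to 4.93 in Yaa and 4.27 to 4.93 in wild type.

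Irak1 is the kinase that is recruited to MyD88 by IRAK4 and that activates TRAF6 and the interferon regulatory factors. It held the 1 tested member probe set whose groups did not overlap. It is X-linked, outside the segment known to be copied to the Yaa chromosome. Of its 4 probe sets, 1438857_x_at stood at 7.38, 8.02, 7.64 and 7.37 in Yaa 1 to 4, against 7.10, 7.0, 7.28 and 7.12 in wild type 1 to 4. All 4 Yaa samples lay above all 4 wild-type samples, with Yaa 2 the highest and the lowest Yaa sample, at 7.37, close to the highest wild-type sample, at 7.28. In the deposited signals, before quantile normalization, the groups overlapped, and Yaa 3 was the lowest of the 8 samples at 117.9. The difference was 0.48 ± 0.17 (SE), or 1.39-fold (limma adjusted p = 0.973). The two-sided exact permutation p was 0.0286, the smallest that 4 against 4 allows. Without Yaa 2 the difference was 0.34 (limma adjusted p = 0.526), and without Yaa 2 and Yaa 3 it was 0.25 (limma adjusted p = 0.683). With the values as deposited it was 0.26 (limma unadjusted p = 0.318), which lay 0.46 above the median of all tested probe sets. With median-centred arrays it was 0.39 (limma unadjusted p = 0.058).

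The other 3 Irak1 probe sets gave differences near 0. The brightest, 1438120_x_at, stood at 9.60, 9.93, 9.53 and 9.5 in Yaa 1 to 4, against 9.53, 9.47, 9.60 and 9.62 in wild type 1 to 4, with the groups overlapping and Yaa 2 above the rest. Its difference was 0.09 ± 0.13 (SE), and those of 1448668_a_at and 1460649_at were 0.02 ± 0.16 and -0.02 ± 0.14 (SE; limma adjusted p 0.997 to 1). Within each array, 1438120_x_at minus 1438857_x_at was 2.22, 1.91, 1.89 and 2.13 in Yaa 1 to 4, against 2.42, 2.47, 2.33 and 2.50 in wild type 1 to 4, so the gap was narrower in every Yaa sample. It averaged 2.04 ± 0.16 in Yaa and 2.43 ± 0.08 in wild type (SD, n = 4 each), a difference of -0.39 (two-sided exact permutation p = 0.0286, unadjusted, the smallest of 7 such comparisons within Irak1, Traf6 and Irf5).

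The comparison with 1438857_x_at reuses the values of a probe set whose groups were already apart, so its p is not separate support. Both values of a pair come from 1 array, so a scaling of the whole array nearly cancels. Deposited and median-centred values could therefore hardly change the difference. The difference was -0.39 for deposited values and -0.37 after median-centring, and -0.29 and -0.44 with 64 and 1 added to the signal in place of 16, with the groups apart each time (two-sided exact permutation p = 0.0286 each). Leaving out single samples gave -0.45 to -0.34, and leaving out Yaa 2 and Yaa 3 gave -0.26. Against the brightest probe set, 1448668_a_at and 1460649_at gave differences of 0.07 and 0.11 (two-sided exact permutation p = 0.371 and 0.343). In Affymetrix names, x marks probe sets that share probes with other transcripts and a those that read several transcripts of 1 gene. The annotation gives 1438857_x_at no accession, and which Irak1 transcript or other transcript it reads was not tested.

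**Figure D2:**
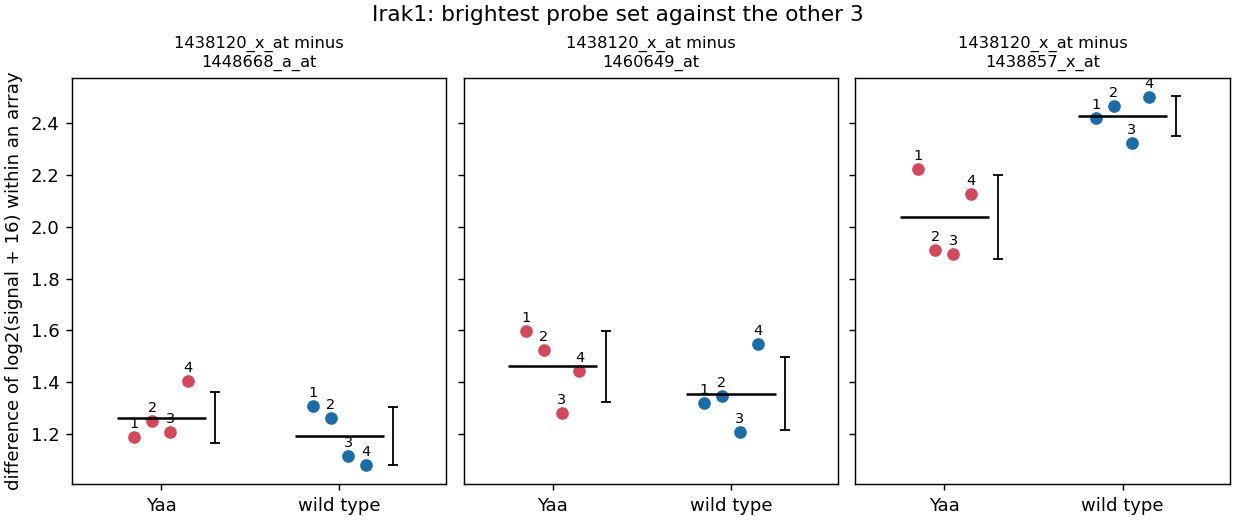
Difference in log2(signal + 16) within an array between the brightest Irak1 probe set, 1438120_x_at, and each of the other 3, with Yaa left of wild type. Points are samples numbered by replicate, lines are group means and bars are SD (n = 4). In the panel of 1438857_x_at the Yaa samples lie at 1.89 to 2.22, below the wild-type samples at 2.33 to 2.50, and in the other panels the groups overlap.

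Irak2, the IRAK that sustains NF-kB signalling late in the response, varied little. Its 1 probe set, 1436507_at, stood at 8.74, 8.97, 8.95 and 8.45 in Yaa 1 to 4, against 8.76, 8.76, 8.85 and 8.94 in wild type 1 to 4. Yaa 4 was the lowest of the 8 samples, and Yaa 2 and Yaa 3 lay just above the highest wild-type sample. The difference was -0.05 ± 0.15 (SE; limma adjusted p = 0.997), with an interval from -0.38 to 0.28, and it was -0.23 without Yaa 2 and Yaa 3 and 0.06 without Yaa 4.

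Ikbke, the IKK-related kinase that phosphorylates interferon regulatory factors, had the widest spread of the members, and 1 sample set it. Its probe set 1417813_at stood at 7.38, 7.64, 5.36 and 7.51 in Yaa 1 to 4, against 7.02, 7.49, 7.34 and 7.33 in wild type 1 to 4. Yaa 3 lay 1.66 below every other sample, and the other 3 Yaa samples lay above the wild-type mean of 7.30. The difference was -0.32 ± 0.46 (SE; limma adjusted p = 0.997) over all samples, and without Yaa 3 it was 0.21 (limma adjusted p = 0.725).

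Traf6, the ligase that relays the signal from the IRAKs to the TAK1 and IKK complexes, had 5 probe sets, of which 4 were tested, and none differed between the groups beyond the spread. The brightest, 1421376_at, stood at 7.34, 8.05, 6.82 and 7.80 in Yaa 1 to 4, against 7.42, 7.62, 7.54 and 7.66 in wild type 1 to 4, a difference of -0.05 ± 0.25 (SE; limma adjusted p = 0.998). The Yaa samples lay on both sides of the wild-type range, with Yaa 2 and Yaa 4 above it and Yaa 1 and Yaa 3 below. A second probe set, 1421377_at, gave 5.88, 6.55, 4.73 and 6.03 in Yaa 1 to 4, against 5.82, 6.11, 6.06 and 5.99 in wild type 1 to 4. It too was highest in Yaa 2 and lowest in Yaa 3, with a difference of -0.20 ± 0.34 (SE). Without Yaa 3 the differences of these probe sets were 0.17 and 0.16.

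The other tested Traf6 probe sets did not show the low value in Yaa 3. In 1435350_at, Yaa 2 stood at 7.65 and the other Yaa samples at 6.85 to 6.97, against 6.79 to 7.30 in wild type. In 1443288_at the Yaa samples stood at 5.22 to 5.81 and the wild-type samples at 5.22 to 5.66. Their differences were 0.12 ± 0.21 and 0.04 ± 0.18 (SE; limma adjusted p = 0.997 and 0.998). The dim probe set 1446940_at lay near the floor, at 4.11 to 4.39 in Yaa and 4.22 to 4.91 in wild type (two-sided exact permutation p = 0.0857).

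The brighter Irf5 probe set, 1460231_at, was tight in wild type and wide in Yaa. It stood at 7.47, 8.63, 7.30 and 7.66 in Yaa 1 to 4, against 7.70, 7.80, 7.85 and 7.87 in wild type 1 to 4. Yaa 2 lay 0.75 above all other samples, and Yaa 1, Yaa 3 and Yaa 4 lay below all wild-type samples. The SD was 0.59 in Yaa and 0.08 in wild type, and the difference of the means was -0.04 ± 0.27 (SE; limma adjusted p = 1). Without Yaa 2 it was -0.33 (limma adjusted p = 0.527), without Yaa 3 it was 0.11, and without both it was -0.24 (limma adjusted p = 0.680).

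The dimmer Irf5 probe set, 1449678_at, ran another way. It stood at 5.87, 5.91, 6.50 and 5.95 in Yaa 1 to 4, against 5.34, 5.95, 5.93 and 6.03 in wild type 1 to 4, so Yaa 3 was its highest sample and wild type 1 its lowest. The other 6 samples lay within 5.87 to 6.03. Its difference was 0.25 ± 0.22 (SE; limma adjusted p = 0.997) over all samples, 0.10 without Yaa 3 and 0.09 without wild type 1. Within an array, the brighter minus the dimmer probe set was 2.71 in Yaa 2 and 0.80 in Yaa 3, against 1.84 to 2.36 in wild type, and the groups did not differ beyond their spread (difference -0.29, two-sided exact permutation p = 0.514).

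Slc15a4 had the lowest difference of the 15 tested probe sets, without passing the test. Its probe set 1448385_at stood at 7.89, 8.31, 7.49 and 8.02 in Yaa 1 to 4, against 8.04, 8.36, 8.43 and 8.21 in wild type 1 to 4. Yaa 1, Yaa 3 and Yaa 4 lay below all wild-type samples, Yaa 3 the furthest, and Yaa 2 lay within their range. The difference was -0.33 ± 0.19 (SE), or 0.79-fold (limma adjusted p = 0.997; two-sided exact permutation p = 0.114). It was -0.46 without Yaa 2 (limma adjusted p = 0.494), -0.19 without Yaa 3, -0.31 without both, and -0.37 with limma array weights (limma adjusted p = 0.283). With the values as deposited it was -0.56, which lay 0.37 below the median of all tested probe sets. The other probe set, 1441925_at, was dim, at 4.12 to 4.81 in Yaa and 4.06 to 4.74 in wild type.

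**Figure D3:**
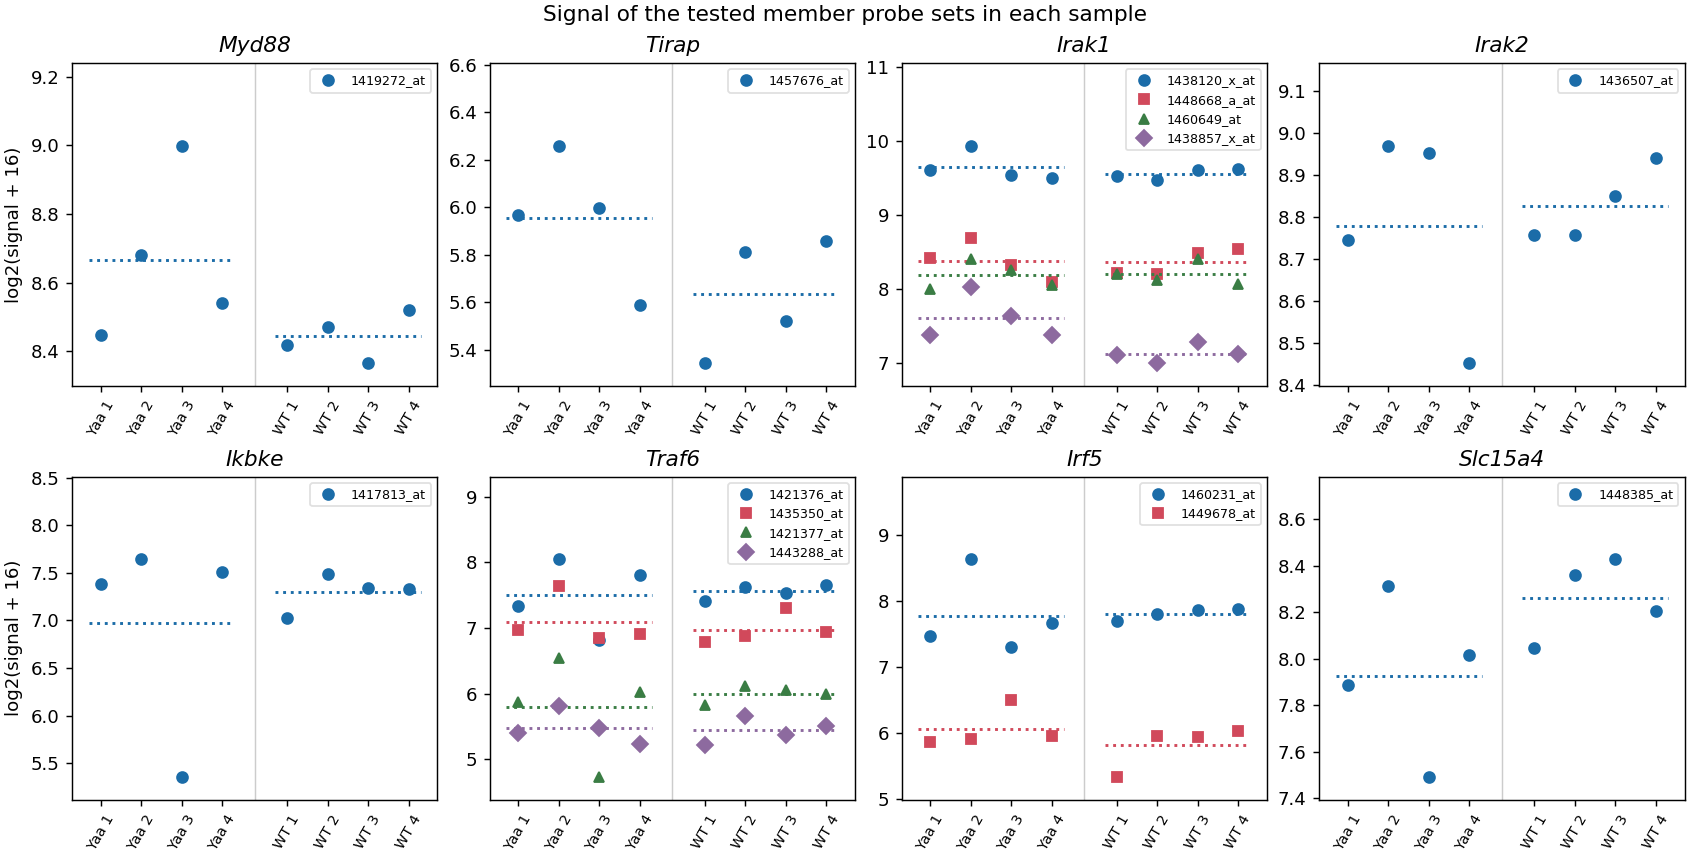
Signal as log2(signal + 16) of the 15 tested member probe sets in each sample, with Yaa 1 to 4 left of wild type (WT) 1 to 4 and a panel per gene. Each marker is 1 sample, dotted lines are group means, and the axes differ between panels. Yaa 3 is far below the other samples for Ikbke at 5.36 and above them for Myd88 at 9.0, and Yaa 2 is the highest sample for the brighter Irf5 probe set at 8.63.

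Across the 15 tested probe sets, Yaa 2 was the highest of the 8 samples for 12, where it was highest for 30.5% of all tested probe sets. The 12 include all 4 Irak1 and all 4 tested Traf6 probe sets. Probe sets of 1 gene are repeated readings on the same arrays, so the counts in this paragraph are not counts of separate genes. Yaa 3 was the lowest for 5 of 15 and for 26.3% of all tested probe sets, and the 5 belonged to Ikbke, Traf6 with 2, Irf5 and Slc15a4. Yaa 2 lay above Yaa 3 for 13 of 15 members and for 48.9% of all tested probe sets, Myd88 and the dimmer Irf5 probe set being the exceptions. The largest such gap was that of Ikbke, at 2.29 in log2(signal + 16). Its size depends on the added 16, since Yaa 3 at 5.36 lay just under the filter's median of 5.38; the deposited signals were 203 in Yaa 2 and 19.3 in Yaa 3. The SD was higher within Yaa than within wild type for 14 of 15 members and for 82.8% of all tested probe sets, with a median SD of 0.30 in Yaa and 0.14 in wild type for the members and 0.34 in Yaa and 0.18 in wild type over all tested probe sets. The exception was the dimmer Irf5 probe set, at 0.30 in Yaa and 0.32 in wild type.

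Several marker lists also had their extreme values in Yaa 2 or Yaa 3. B cell markers, 7 tested of 8, averaged 6.19 in Yaa 3 and 10.40 to 11.03 in the other Yaa samples, against 10.45 to 10.83 in wild type. T cell markers, 6 tested of 7, averaged 5.22 in Yaa 3 and 8.56 to 9.56 in the other Yaa samples, against 8.43 to 8.99 in wild type, with 6 of 6 lowest in Yaa 3 and 6 of 6 highest in Yaa 2. Splenic resident macrophage markers, 7 of 7 tested, were all highest in Yaa 3, at 10.23, against 8.77 to 8.90 in wild type, and so were 5 of 5 tested NK cell markers. Plasmacytoid dendritic cell markers, 5 tested of 6, averaged 9.25 in Yaa 2 and 7.37 in Yaa 3, against 8.11 to 8.63 in wild type. Their genes were divided in Yaa 3. Ly6d, at 6.69 against 11.04 to 11.49 in wild type, and Tcf4 were lowest there. In the same sample Bst2 lay above all wild-type samples and Ccr9 lay within their range. The most specific gene of the list, Siglech, stood at 7.18 in Yaa 2 and 6.73 in Yaa 3, against 6.37 to 6.79 in wild type. Erythroid markers, 5 tested of 6, were at 10.24 in Yaa 2, against 11.79 to 12.10 in wild type. The part of these shifts in the values of Ikbke, Traf6, Irf5, Slc15a4 and Myd88 was not tested.

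Some lists had means that were higher in most or all Yaa samples, with their genes divided. Monocyte and macrophage markers averaged 8.51 to 9.73 in Yaa, against 8.26 to 8.34 in wild type. Of the 7 tested, 4 had every Yaa sample above every wild-type sample (Lyz2, Fcgr4, Ccr2 and Itgam) and 3 overlapped. Over all tested probe sets the share with Yaa above in this way was 2.43%. Of the splenic resident macrophage markers 1 of 7 was (C1qa). In the B cell, T cell, plasmacytoid dendritic cell, NK cell and erythroid lists 0 were. Handling and heat shock genes, 8 of 8 tested, averaged 10.76 to 11.16 in Yaa, against 10.19 to 10.38 in wild type. Of the 8, 4 had every Yaa sample above every wild-type sample, the heat shock genes Hspa1a, Hspa1b and Hsph1 and the phosphatase gene Dusp1, and Fos, Jun, Egr1 and Atf3 overlapped. Neutrophil markers, 9 tested of 10, averaged 10.87, 8.86, 10.53 and 9.78 in Yaa 1 to 4, against 8.32 to 9.02 in wild type. Of the 9, 3 had every Yaa sample above every wild-type sample (S100a9, Mmp8 and Mmp9) and 6 overlapped. The Yaa 2 mean lay within the wild-type range but its genes were divided, with 5 of 9 above all wild-type samples, 3 below all of them (Ngp, Camp and Ltf) and 1 within their range. The part of these lists in the higher Irak1 1438857_x_at signal, the 1 member probe set whose groups were likewise apart, was not tested.

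**Figure D4:**
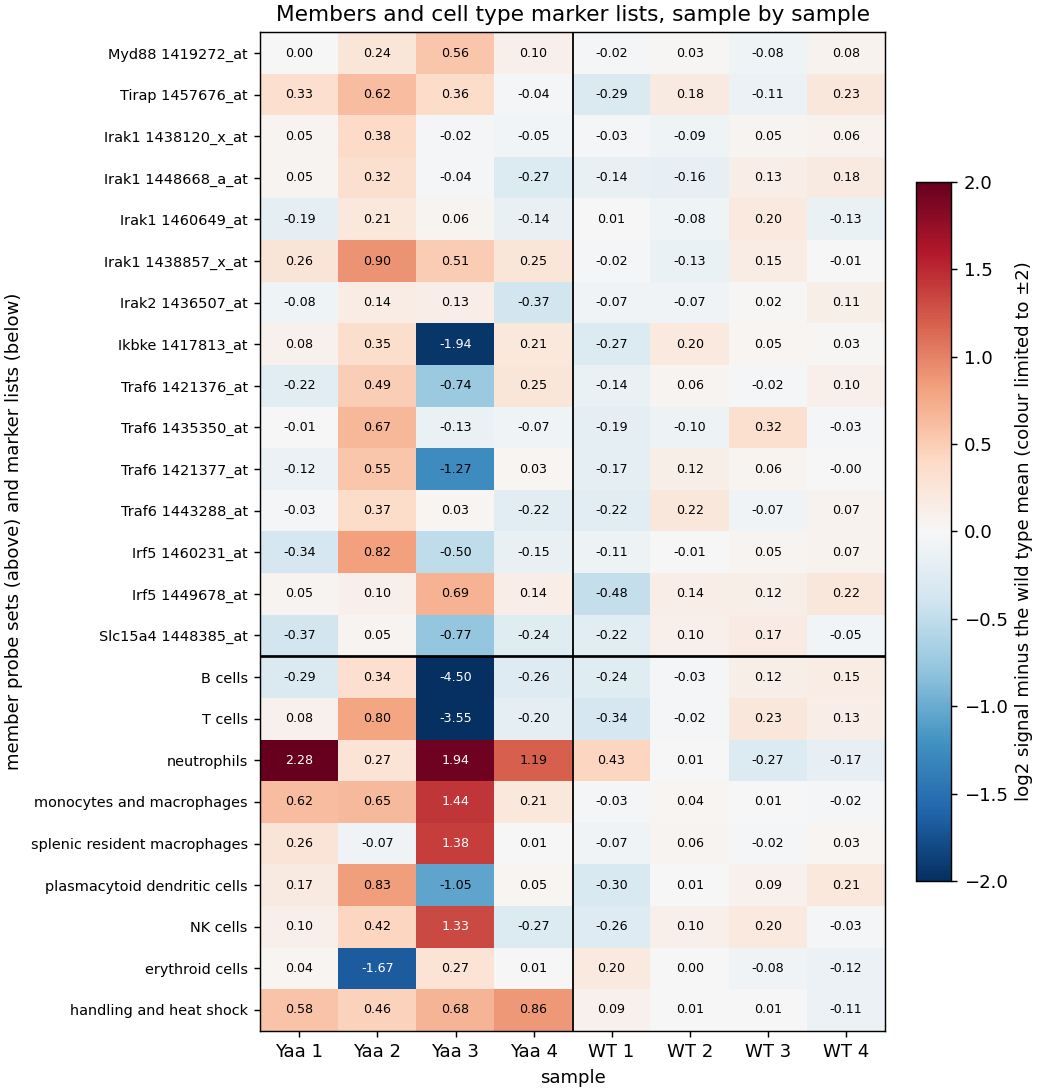
Signal of each tested member probe set (above the line) and mean signal of each cell type marker list (below it) in each sample, minus the wild-type mean of that row, in log2 units with Yaa left of wild type (WT). Colours stop at ±2 and the printed values do not. In Yaa 3 the B cell row stands at -4.50 and that of Ikbke at -1.94, while Myd88 stands at 0.56.

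Among 40 other genes of the pathway, 34 were tested, 3 were dim and 3 were not analysed here. In limma 0 of the 34 passed the adjusted threshold, and their median difference was 0.01. Before adjustment 4 of them had a limma p below 0.05, with Tlr7, Pik3ap1 and Irak3 higher in Yaa and Traf5 lower. Over all tested probe sets this share was 4.73%, split into 2.97% above and 1.76% below wild type. Each gene was read by its brightest tested probe set. Tlr7 has 3 probe sets and Pik3ap1, Irak3 and Traf5 have 2 each, and the values of the others are not given here. The gene with the smallest p was Tlr7, the RNA receptor, which lies in the copied segment, at 0.91 ± 0.21 (SE; limma adjusted p = 0.553; two-sided exact permutation p = 0.0286). Pik3ap1, which encodes BCAP, an adaptor linking B cell receptor and Toll-like receptors to phosphoinositide 3-kinase, stood at 8.41, 9.77, 10.01 and 10.16 in Yaa 1 to 4, against 7.51, 8.29, 8.41 and 8.4 in wild type 1 to 4. Yaa 2 to 4 lay above all wild-type samples and Yaa 1 just below the highest of them, and the difference was 1.43 ± 0.39 (SE; limma adjusted p = 0.728; two-sided exact permutation p = 0.0571).

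Irak3, the IRAK family member that restrains signalling in macrophages, stood at 6.83, 6.95, 6.73 and 6.81 in Yaa 1 to 4, against 6.32, 6.52, 6.14 and 6.64 in wild type 1 to 4. Its groups did not overlap, its SD was 0.09 in Yaa and 0.22 in wild type (n = 4 each), and its difference was 0.43 ± 0.14 (SE; limma adjusted p = 0.960; two-sided exact permutation p = 0.0286). Traf5 had a difference of -0.45 ± 0.19 (SE) and Ticam1, the adaptor of TLR3 and TLR4 also called TRIF, of 0.47 ± 0.24 (SE), each with a limma adjusted p of 0.997. Array weighting in limma set both Yaa 2 and Yaa 3 to 0.22, and under it Tlr7 passed (0.95, limma adjusted p = 0.020), while none of the 15 member probe sets did.

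The genes with the pattern most like that of a member were sought by Pearson's r over the 8 samples among 10339 other tested genes. The genes are the highest of many and the 8 samples share their arrays, so these are descriptions without a p. Slc15a4 ran most like Tbk1 and Dennd4b, with r of 0.98 each and 0.98 each without Yaa 2 and Yaa 3. Traf6 ran most like Slain1 and Usp28, with r of 0.99 and 0.97, and 0.96 and 0.90 without those samples. Irf5 ran most like Hs3st3b1 and Hif1an, with r of 0.98 each, and 0.78 and 0.97 without them. Myd88 ran most like Itga5 and Dram2, with r of 0.98 and 0.97, which dropped to 0.65 and 0.69 over the other 6 samples. Spearman's rho of these 8 pairs ran from 0.79 to 0.98.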

How the data were processed

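The authors deposited a linear intensity for each probe set, made with MAS5 per the submitters' processing notes. Its version and scaling target were not given in the sources used here. All 8 arrays were quantile normalized, 16 was added and log2 taken; controls and probe sets at or under the median mean log2 of 5.38 were left out, leaving 22518. The groups were compared in limma 3.58.1 (R 4.3.3; lmFit, eBayes with a mean-variance trend, Benjamini-Hochberg over all tested probe sets, threshold 0.05), and single values by exact two-sided permutation over 70 arrangements. Dim probe sets were taken from a fit without the filter. No 2 arrays held the same values.

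Genes were named through the platform annotation, updated through GRCm38.p6 gene IDs; the brightest tested probe set stood for a gene. Named were all members, the 5 other pathway genes with the smallest p and the 2 genes most like Myd88, Traf6, Irf5 and Slc15a4 (Irak4, also in that rule, was not analysed here). Members, lists and tests were chosen with earlier results of these data known. Alternatives changed the constant, filter, scaling, variance model, array weights, replicate block and samples. The fit was tested on simulated data. Per the labels the samples are separate mice except the pool. Figures used matplotlib 3.10.9.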

Additional observations from a re-analysis of the deposited data

Results flagged for a closer look

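In 5 of 36 groups of 4 samples, 1 sample lay far from the other 3 of its group by the Dixon criterion on gap over range. The criterion is set at about 1 in 20 for a single group. The 36 groups share the same arrays and several come from 1 gene, so the count is not read against that rate. The share over all probe sets was not counted. Ikbke 1417813_at stood at 5.36 in Yaa 3. Traf6 1435350_at stood at 7.65 in Yaa 2, and its dim probe set 1446940_at at 4.39 in Yaa 4. Irf5 1449678_at stood at 6.50 in Yaa 3, and at 5.34 in wild type 1 within its own group. Yaa 3 was the pool of 2 spleens, and its part in the Ikbke and Irf5 values was not tested.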

How the results depend on the processing

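No member passed limma's adjusted threshold in any of the 18 alternatives, and of 312 member values 270 kept their direction and 42 changed sign. All alternatives were run, though some gave no value for a probe set, such as a stricter filter for dim ones. Tirap 1457676_at, Irak1 1438857_x_at, Traf6 1446940_at, Irf5 1449678_at and Slc15a4 1448385_at kept their sign in each alternative that gave them a value, 16 to 18 of the 18. The 3 dim probe sets lie near the floor, which limits what their values show. The cause of each change below was not tested.

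limma called 1 probe set higher and 0 lower over all tested; with 1 added it called 7 higher, with a stricter filter on dim probe sets 0, with array weights 102 higher and 41 lower, without Yaa 2 and Yaa 3 74 higher and 31 lower, and leaving out 1 sample 1 to 28 higher and 0 to 3 lower. Members at an unadjusted p under 0.05 numbered 1; it was 0 with deposited values, with median-centred arrays and without Yaa 2 and Yaa 3, 2 with array weights, and 0 to 3 leaving out 1 sample: 3 without Yaa 2 (Irak1, Irf5, Slc15a4), 2 without Yaa 4 (Irak1, Tirap), 0 without wild type 2. Of the other pathway genes array weights called 1, and 4 at an unadjusted p under 0.05 became 8 with array weights, 7 without Yaa 2 and Yaa 3, and 2 to 7 leaving out 1 sample. Over all 22518 tested probe sets the number at that limma threshold moved too. It was 1066 in the main fit, 2549 with array weights and 1987 without Yaa 2 and Yaa 3. It was 2065 without Yaa 2, 1156 without Yaa 4, 662 without wild type 2 and 761 without wild type 3. Deposited values gave 933 and median-centred arrays 1096.

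Same-numbered samples did not deviate together over the probe sets (correlations -0.005, 0.016, -0.367 and -0.128). Whether the numbers mark a shared preparation was not tested. With the replicate block limma called 0 probe sets higher and 0 lower, and 0 members. The block lowered the SE for some genes and raised it for others. It went from 0.39 to 0.20 for Pik3ap1, from 0.24 to 0.16 for Ticam1 and from 0.17 to 0.19 for Irak1 1438857_x_at.

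With deposited values the sign turned for Myd88 (-0.0069), Tirap 1418685_at (-0.025), Irak1 1438120_x_at (-0.13) and 1448668_a_at (-0.22), Traf6 1435350_at (-0.090) and 1443288_at (-0.045), Slc15a4 1441925_at (-0.026) and Traf6 1421376_at minus 1421377_at (-0.0016). With median-centred arrays it turned for Irak1 1448668_a_at (-0.083). With array weights it turned for Tirap 1418685_at (-0.13), Irak1 1448668_a_at (-0.039), Traf6 1443288_at (-0.13) and Traf6 1421376_at minus 1443288_at (0.024). Without Yaa 2 and Yaa 3 it turned for Tirap 1418685_at (-0.24), Irak1 1438120_x_at (-0.0014) and 1448668_a_at (-0.11), Ikbke (0.15), Traf6 1421376_at (0.016), 1435350_at (-0.040) and 1443288_at (-0.13), and for Traf6 1421376_at minus 1435350_at (0.056) and minus 1443288_at (0.14).

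Leaving out 1 sample gave ranges across 0 for Tirap 1418685_at (-0.087 to 0.14), Irak1 1438120_x_at (-0.0075 to 0.14), 1448668_a_at (-0.086 to 0.11) and 1460649_at (-0.094 to 0.050), Irak2 (-0.11 to 0.063), Ikbke (-0.54 to 0.21), Traf6 1421376_at (-0.24 to 0.17), 1435350_at (-0.070 to 0.22), 1421377_at (-0.45 to 0.16) and 1443288_at (-0.070 to 0.12), Irf5 1460231_at (-0.33 to 0.11), Slc15a4 1441925_at (-0.14 to 0.12), Traf6 1421376_at minus 1443288_at (-0.28 to 0.13) and Irf5 1460231_at minus 1449678_at (-0.62 to 0.011).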
